A study of Mus musculus with 4 samples.

Results

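The mitochondrial ribosomal protein genes on the array were taken as all genes whose probe sets carry exactly 1 gene symbol beginning with Mrpl or Mrps followed by a digit. There were 74 such genes among 12393 genes with a single-symbol probe set, 47 named for the large ribosomal subunit (Mrpl) and 27 for the small subunit (Mrps). They were measured by 127 probe sets, and each gene was represented by its probe set of highest mean signal. RNA came from 4 tumors grown in nude mice (NCR Nu/Nu) after injection of cells under the skin. All 4 tumors came from iBMK cells, an immortalized mouse kidney epithelial line that lacks Atg5 (ATG5-/-), a gene required for autophagy, and carries Bcl-2, an inhibitor of apoptosis. In 2 tumors the cells carried EGFP alone, a fluorescent protein. In the other 2 they carried p62-EGFP, in which p62, an adaptor for and a cargo of autophagy, is joined to it. The labels name no treatment, no age of the host mice and no promoter for either construct. They do not state if tumors with the same construct arose in different mice or from different cultures, so p-values measure only the spread between these tumors, which may be technical. Each value is a signal of the MAS5 algorithm, a linear measure of hybridization from 1 Affymetrix array per tumor. Of all genes, 7846 had a probe set bright enough to be tested, at or above the 40th percentile of mean log2 value.

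Mitochondria contain their own ribosome, which translates the few proteins still encoded by mitochondrial DNA, all of them subunits of the respiratory chain and the ATP synthase. Its RNA is made in the organelle, but every one of its proteins is encoded in the nucleus, made in the cytosol and imported. Some of these proteins descend from bacterial ribosomal proteins, and others were added during the evolution of mitochondria. The large subunit forms peptide bonds and guides the new chain through an exit tunnel to the inner membrane, and the small subunit decodes the messenger RNA. Promoters of nuclear genes for mitochondrial proteins are known for sites of NRF1, of the ETS factor GABPA and of YY1.

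The choice by symbol did not use promoter letters. ETS, YY1 and NRF1 letters were more frequent in promoters of the members than in those of all genes, though most member promoters lacked each of them. RefSeq promoter windows of GRCm38.p6, each 300 bases long with 250 before the start of transcription, were matched by symbol to 65 of the 74 members (71 windows). The ETS sequence CCGGAAG, searched on both strands, was found in 33.8% of the member windows, in 14.0% of the 12566 windows of all genes on the array and in 8.86% of all 32851 windows. The YY1 sequence AAGATGGC was found in 15.5%, 3.6% and 2.75%, and the NRF1 sequence, which is GC-rich, reads the same on both strands and is in capitals in the first sequence printed here, in 18.3%, 10.6% and 6.23% of the same sets. The TATA box TATAAA, in 7.04% of member windows, was in 9.81% of those of all genes on the array, and the E-box CACGTG stood at 9.86% against 9.11%. The median GC content was 58.7% in member windows and 52.7% in all windows, and its part in these percentages was not tested. The ETS letters were in 14 of 46 large-subunit and in 10 of 25 small-subunit windows. Windows of members that were higher in both p62-EGFP tumors held them in 28.6%, and those of the other members in 41.4%, with NRF1 letters in 21.4% and 13.8%. The 250 bases before the start are shown for 5 members as examples of these layouts, chosen after their values were seen, with NRF1, ETS and YY1 letters in capitals:
Mrpl12: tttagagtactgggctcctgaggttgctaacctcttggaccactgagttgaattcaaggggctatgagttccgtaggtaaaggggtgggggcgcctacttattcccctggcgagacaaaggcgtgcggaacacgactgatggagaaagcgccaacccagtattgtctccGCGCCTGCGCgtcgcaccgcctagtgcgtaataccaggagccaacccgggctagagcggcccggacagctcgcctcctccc
Mrpl17: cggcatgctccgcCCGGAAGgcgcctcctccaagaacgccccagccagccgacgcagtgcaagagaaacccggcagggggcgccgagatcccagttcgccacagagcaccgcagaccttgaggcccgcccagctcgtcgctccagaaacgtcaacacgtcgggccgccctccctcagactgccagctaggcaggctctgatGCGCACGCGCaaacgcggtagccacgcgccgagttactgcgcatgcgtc
Mrps26: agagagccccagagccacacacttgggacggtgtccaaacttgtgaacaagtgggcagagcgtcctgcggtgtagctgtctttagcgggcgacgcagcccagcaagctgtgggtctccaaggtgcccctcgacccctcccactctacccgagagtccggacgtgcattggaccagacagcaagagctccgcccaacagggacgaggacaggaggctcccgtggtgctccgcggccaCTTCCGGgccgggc
Mrps12: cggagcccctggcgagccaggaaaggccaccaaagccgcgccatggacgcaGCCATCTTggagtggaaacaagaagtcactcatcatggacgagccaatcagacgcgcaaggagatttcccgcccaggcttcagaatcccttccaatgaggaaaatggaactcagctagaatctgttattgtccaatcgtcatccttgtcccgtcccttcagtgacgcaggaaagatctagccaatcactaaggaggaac
Mrps18a: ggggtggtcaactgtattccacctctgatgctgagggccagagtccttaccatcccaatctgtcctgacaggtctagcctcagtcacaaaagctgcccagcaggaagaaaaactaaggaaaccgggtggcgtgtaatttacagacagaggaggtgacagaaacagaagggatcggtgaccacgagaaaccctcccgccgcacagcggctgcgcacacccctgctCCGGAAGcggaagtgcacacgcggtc
They are written on the strand of the gene and lie at chr11:120484387-120484636 (plus strand), chr7:105811088-105811337 (minus), chr2:130563507-130563756 (plus), chr7:28741822-28742071 (minus) and chr17:46110754-46111003 (plus). Mrpl12 has an NRF1 match that begins 81 bases before the start. Mrpl17 has an NRF1 match at 49 bases and an ETS match at 237 bases. Mrps26 and Mrps18a have an ETS match at 14 and 26 bases, and Mrps12 a YY1 match at 199 bases. The full windows of Mrps26, Mrps12 and Mrps18a also hold an NRF1, an ETS and a YY1 match, respectively. These further matches do not lie wholly within the 250 bases shown. A match describes these letters only, and binding was not measured.

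Many of these genes are arranged head to head with another gene. Of the 65 members with a window, 24 (36.9%) had a start on the opposite strand within 1000 bases upstream, as had 16.6% of the 9887 genes on the array with a window. One such pair joins a large-subunit and a small-subunit gene. In that pair Mrpl46 read 172 and 159.8 with EGFP and 158 and 171 with p62-EGFP, and Mrps11 read 212 and 175 with EGFP and 190.3 and 221 with p62-EGFP, so that the groups overlapped on both sides. Mrps12 faces Sars2, the mitochondrial seryl-tRNA synthetase gene. Facing genes did not always differ in the same direction. Mrpl47 faces Ndufb5, a subunit gene of respiratory complex I, with log2 differences (p62-EGFP minus EGFP) of 0.29 and 0.32, the tumors overlapping for Ndufb5. Mrpl41 faces Pnpla7, with 0.36 and -0.35 and overlap for Pnpla7, and Mrpl2 faces Klc4, with 0.11 and -0.30.

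The arrays had median signals between 57.7 and 60.9, and their means after trimming 2% of probe sets at each end were equal at 149.99, so that the deposited values were used without further scaling. EGFP tumor 2 stood apart in leukocyte transcripts and p62-EGFP tumor 1 in skeletal muscle transcripts, as described with the host cell markers further on. Over the 13576 probe sets tested, the SD of the log2 difference between tumors of one group was 0.604 (EGFP) and 0.273 (p62-EGFP). Over the 74 members these SDs were smaller, at 0.266 and 0.173.

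Mitochondrial ribosomal protein genes stood higher in the p62-EGFP tumors as a group by a small margin, and no single gene passed the test. All 74 passed the filter on low values, with a lowest mean signal of 96.6. The median log2 difference was 0.28 over the 74 genes and 0.01 over the 7846 genes tested, where log2 values are log2(signal + 16). In 61 of 74 the mean was higher in the p62-EGFP tumors, which was so for 51.7% of the genes tested. For 41 members the lowest p62-EGFP value exceeded the highest EGFP value (55.4%), where 26.4% of the genes tested did so. The reverse held for 1 member (1.35%), where 22.1% of the genes tested did so. The shift was modest in size: 8 members were more than 1.5-fold higher and 0 more than 1.5-fold lower, and the quartiles of the 74 log2 differences were 0.08 and 0.43. Among the genes tested, 5.32% were more than 1.5-fold higher and 7.29% more than 1.5-fold lower.

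With limma across all probe sets and Benjamini-Hochberg adjustment, 0 of the 74 members were called, beside 0.0884% of the 13576 probe sets tested, 0.0589% higher and 0.0295% lower. The smallest adjusted p of a member was 0.179 (limma). At an unadjusted limma p under 0.05, 20 members were higher and 0 lower, where 8.5% of the genes tested were higher and 6.3% lower. No exact two-sided permutation of 2 against 2 tumors can give one gene a p below 0.333. Calls depended on which tumor was in the fit. With an EGFP tumor left out, the spread came from the p62-EGFP pair alone, and the lone EGFP tumor was assumed to vary like it. Calls then rose over the whole table, from the 12 probe sets called with all tumors, so the rise was not particular to the members. The medians of the large and small subunit were 0.26 and 0.21 without EGFP tumor 1, and 0.34 and 0.25 without EGFP tumor 2. Without either p62-EGFP tumor the count of members called was 0.

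**Figure D1:**
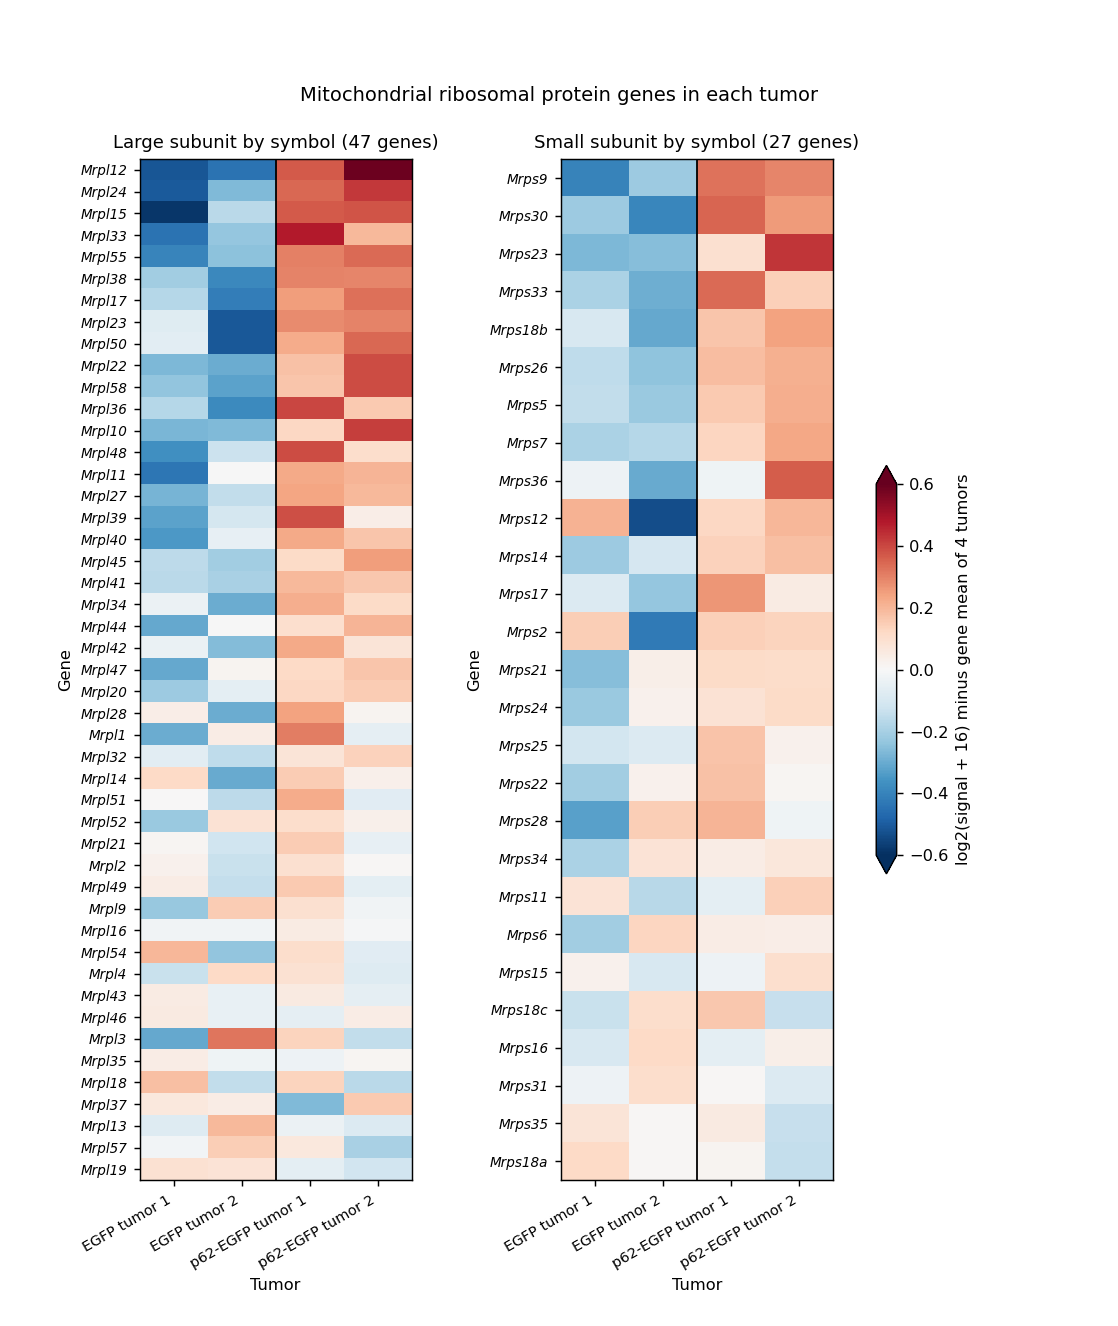
Heat map of log2(signal + 16) minus the gene's mean over the 4 tumors (colour, from -0.6 to 0.6) for 47 large-subunit genes (left) and 27 small-subunit genes (right), 1 row per gene sorted by log2 difference and 1 column per tumor. The 2 EGFP columns are mostly blue and the 2 p62-EGFP columns mostly red, except toward the bottom of each panel, where the tumors overlap.

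Large-subunit and small-subunit genes both had positive medians, and which was larger depended on the probe sets used. The median log2 difference was 0.29 for the 47 large-subunit genes, of which 27 were higher in both p62-EGFP tumors, 1 lower and 19 overlapping. It was 0.22 for the 27 small-subunit genes, of which 14 were higher, 0 lower and 13 overlapping. The medians differed by 0.06, and when the probe sets of each gene were averaged the sign turned, to -0.04, so no order of the subunits can be read. By tumor, the median of the gene-centred log2 values of the large subunit was -0.16 and -0.15 with EGFP, against 0.16 and 0.11 with p62-EGFP. For the small subunit it was -0.15 and -0.10 against 0.13 and 0.11. Both EGFP tumors were thus below both p62-EGFP tumors for either subunit, and the tumors of a group lay close together. The 4 single comparisons of a p62-EGFP tumor with an EGFP tumor gave medians from 0.21 to 0.33 for the large subunit and from 0.24 to 0.30 for the small subunit. Summed signals of the large subunit were 13798 and 13885 against 17555 and 16848, and those of the small subunit 7260 and 7232 against 8695 and 8467.

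**Figure D2:**
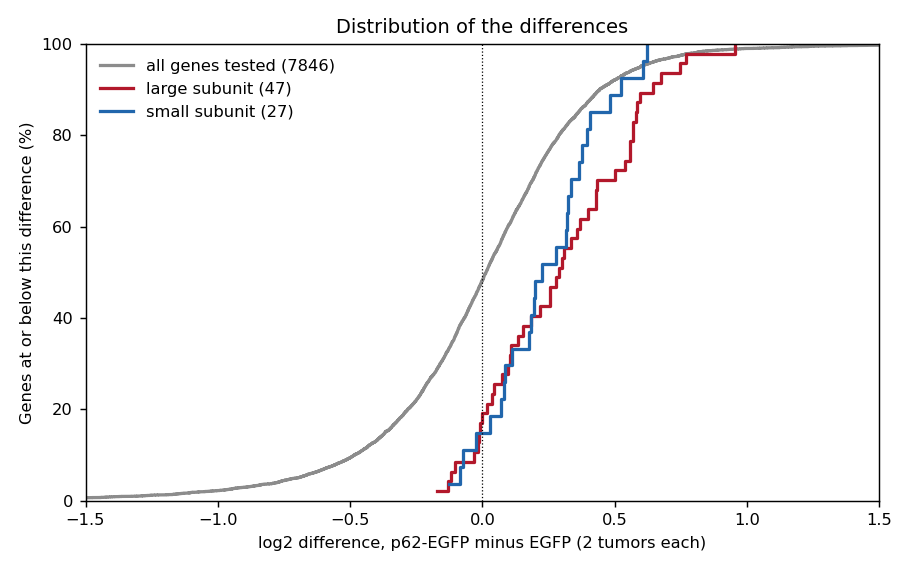
Cumulative percentage of genes (vertical axis) at or below each log2 difference, p62-EGFP minus EGFP (horizontal axis), for the 7846 genes tested (grey), 47 large-subunit genes (red) and 27 small-subunit genes (blue). Both subunit curves lie to the right of the grey curve over most of their range and have medians of 0.29 and 0.22 against 0.01, and neither has the grey curve's tail of negative differences.

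The large-subunit genes are described by the site of their proteins in the ribosome, in groups that were drawn up with the values known and carry no test. Mrpl12, the stalk protein that recruits translation factors and also binds the mitochondrial RNA polymerase, had the largest difference of any member. It read 256 and 269 with EGFP and 483 and 566 with p62-EGFP. Both p62-EGFP tumors were far above both EGFP tumors (log2 difference 0.95, SE 0.16), and the gene did not pass (limma adjusted p = 0.179). Mrpl10, which anchors the stalk, read 181 and 183 against 244 and 302 (log2 difference 0.54), and Mrpl11, at the stalk's base, read 188 and 259.6 against 306 and 302 (log2 difference 0.43). All 3 stalk genes were higher in both p62-EGFP tumors by their chosen probe sets. For Mrpl11, a probe set of similar brightness overlapped, at 217 and 259 against 284 and 227 (log2 difference 0.09). A dimmer tested probe set of Mrpl11 also overlapped (log2 difference 0.16).

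The 8 genes for proteins around the exit of the tunnel, where the new chain meets the inner membrane, were all higher in both p62-EGFP tumors, and their median was 0.50. Mrpl24 read 465 and 552 with EGFP and 851 and 901 with p62-EGFP (log2 difference 0.77, SE 0.14, limma adjusted p = 0.190). Mrpl17 read 259 and 216 with EGFP and 352 and 373 with p62-EGFP (log2 difference 0.58, SE 0.17, limma adjusted p = 0.254). Mrpl23 read 502 and 366 with EGFP and 646 and 653 with p62-EGFP (log2 difference 0.58, SE 0.19, limma adjusted p = 0.289). Its EGFP tumors were far apart and its p62-EGFP tumors close together, and the groups did not overlap. Mrpl22 read 349.6 and 343 against 483 and 563, and Mrpl45, which holds the ribosome to the membrane, read 221 and 212 against 270.3 and 299. The other 3, Mrpl39, Mrpl44 and Mrpl47, had log2 differences of 0.43, 0.31 and 0.29, the last being the median of the large subunit. The 5 genes near the peptidyl transferase centre (Mrpl2, Mrpl3, Mrpl4, Mrpl16 and Mrpl27) had a median of 0.04. Of them 2 were higher in both p62-EGFP tumors. These were Mrpl27, at 612 and 674 against 883 and 857, and Mrpl16, at 376 and 376 against 395 and 379.8 (log2 difference 0.04). Among all 74 members 55.4% were higher in both, and among the genes tested 26.4%. After subtraction of each chromosome's median over genes tested, the medians were 0.26 for tunnel exit genes and 0.13 for peptidyl transferase genes. The difference between these sites was not tested.

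Other large-subunit genes with wide gaps were Mrpl15, Mrpl33, Mrpl55 and Mrpl38. Mrpl15 read 204 and 279.8 with EGFP and 410.3 and 414 with p62-EGFP (log2 difference 0.75, SE 0.19, limma adjusted p = 0.235). Of its 7 probe sets, 6 were higher in both p62-EGFP tumors, and the 4 brightest had log2 differences from 0.75 to 1.01. Mrpl33 read 135 and 158 with EGFP and 269 and 218 with p62-EGFP (log2 difference 0.67, SE 0.19, limma adjusted p = 0.245). Mrpl55 read 136 and 153 with EGFP and 232 and 238 with p62-EGFP (log2 difference 0.65, SE 0.16, limma adjusted p = 0.226). Mrpl38, a protein of the central protuberance that has no bacterial homolog, read 154 and 135 with EGFP and 226 and 225 with p62-EGFP (log2 difference 0.59, SE 0.16, limma adjusted p = 0.244). In each of these genes the p62-EGFP tumors were at least as close to each other as the gap to the nearest EGFP tumor. Mrpl58, a peptidyl-tRNA hydrolase that releases chains from stalled ribosomes and became part of the large subunit, read 418 and 393 against 556 and 654 (log2 difference 0.56).

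Mrpl19 was the only member with both p62-EGFP tumors below both EGFP tumors. It read 276 and 274 with EGFP and 247 and 237 with p62-EGFP (log2 difference -0.17, SE 0.15, limma adjusted p = 0.612), a small gap between tight pairs. Its second probe set was also lower, at 211 and 214 against 184 and 169 (log2 difference -0.25). Mrpl57, Mrpl13 and Mrpl37 had log2 differences of -0.13, -0.12 and -0.11 with overlapping tumors. Another probe set of Mrpl13 was higher in both p62-EGFP tumors, with a log2 difference of 0.19.

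**Figure D3:**
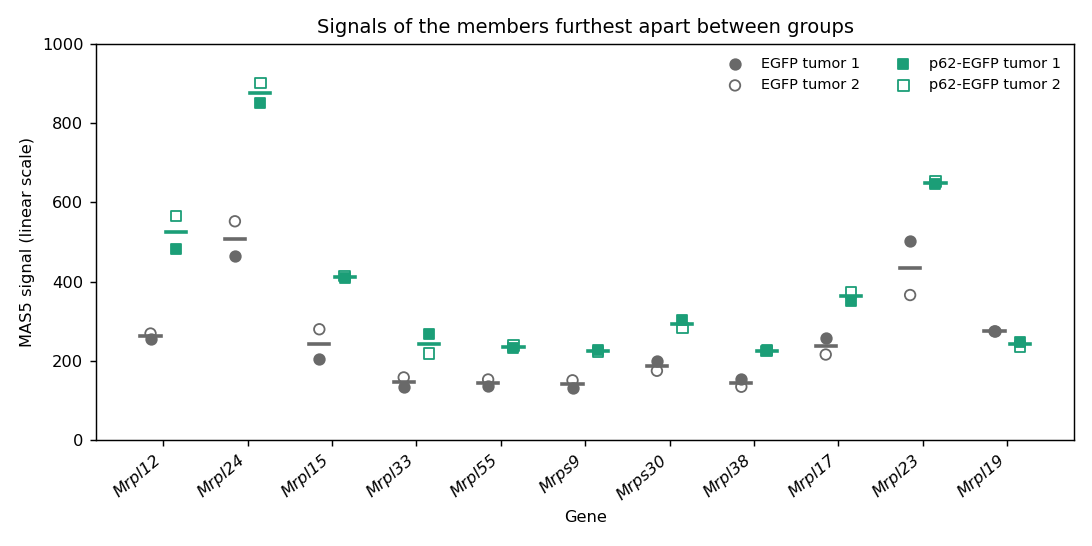
MAS5 signal on a linear axis from 0 for the 10 members with the largest higher difference and for Mrpl19, with 1 point per tumor (circles EGFP, squares p62-EGFP, filled tumor 1, open tumor 2) and a bar at each group mean. The squares lie above the circles in the first 10 genes and below them in Mrpl19, where the signals run from 237 to 276.

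In the small subunit, Mrps9, a protein of the head, had the largest difference. It read 131 and 151 with EGFP and 228 and 222 with p62-EGFP (log2 difference 0.62, SE 0.16, limma adjusted p = 0.236). All 4 of its probe sets were higher in both p62-EGFP tumors. Of the 6 genes at the decoding site and along the path of the messenger RNA (Mrps5, Mrps7, Mrps9, Mrps11, Mrps12 and Mrps21), 4 were higher in both p62-EGFP tumors and 6 had a positive difference, with a median of 0.34. Mrps5 read 92.3 and 86.8 against 118 and 124 and Mrps7 183 and 186 against 233 and 251, in each case with the pairs clearly apart. Mrps12, whose bacterial counterpart sets the accuracy of decoding, read 500.4 and 293 with EGFP and 471 and 497 with p62-EGFP. Its difference rested on the low value of EGFP tumor 2 (log2 difference 0.32, SE 0.27), and without that tumor the difference was -0.05. Mrps2 showed the same layout, at 255 and 166 against 254 and 252. The mitochondria-specific genes Mrps23 and Mrps33 read 169 and 171 against 223 and 284 and 424 and 394 against 619.9 and 538, with log2 differences of 0.52 and 0.48.

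For Mrps30, Mrps18a and Mrps36 the symbol does not give the place of the protein, and Mrps18b and Mrps18c are described beside them. Mrps30 and Mrps18a are named for the small subunit, and structures place their proteins in the large one. Mrps30 read 199 and 175 with EGFP and 303 and 283 with p62-EGFP (log2 difference 0.61, SE 0.16, limma adjusted p = 0.240), whereas Mrps18a read 355 and 327 against 329 and 293 (log2 difference -0.13) with overlapping tumors. The proteins of its paralogs Mrps18b and Mrps18c belong to the small subunit. Mrps18b read 174 and 148 with EGFP and 212 and 224 with p62-EGFP, all p62-EGFP values being above all EGFP values (log2 difference 0.41, SE 0.17, limma adjusted p = 0.35). Mrps18c read 549.6 and 652 against 679 and 549 (log2 difference 0.03) with overlap. A test of the difference between the 3 paralogs was not run. Mrps36 is a subunit of the oxoglutarate dehydrogenase complex despite its name, and read 252 and 206 against 253 and 336 (log2 difference 0.34). With Mrps30 and Mrps18a counted in the large subunit and Mrps36 left out, the medians were 0.29 over 49 and 0.21 over 24 genes.

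The medians by descent of the protein lay close together, and their difference was not tested. The 44 genes whose proteins have a bacterial homolog had a median log2 difference of 0.27, with 24 higher in both p62-EGFP tumors and 1 lower. The 29 genes for proteins classed as mitochondria-specific had a median of 0.30, with 16 higher and 0 lower. Mrps18a and Mrps18b were counted among these 29, although their paralog Mrps18c was counted among the 44. The widest spread between tumors of a group was in Mrpl3, Mrps12, Mrps28 and Mrpl1. Mrpl3 read 200.4 and 317 against 277 and 225 and Mrps28 279 and 393 against 409 and 346, so that each group spanned much of the range of the other. Mrpl1 read 74.6 and 98.7 against 122 and 91.4. In Mrpl3 and Mrps28, leaving out 1 tumor turned the sign of the difference, which ran from -0.33 to 0.30 and from -0.06 to 0.41.

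Of the 74 members, 33 had more than 1 probe set, which gave 53 further probe sets, 34 of them bright enough to be tested. Of these 34, 29 had the sign of the chosen probe set, 19 were higher in both p62-EGFP tumors and 1, of Mrpl19, was lower, with a median log2 difference of 0.28. No member had probe sets that were non-overlapping in opposite directions. When all probe sets of a gene were averaged, dim ones included, the median of the large subunit was 0.18. A further 3 probe sets carry the symbol of a mitochondrial ribosomal protein together with another gene's and were left out. The one shared by Mrpl30 and Gm6238 read 307 and 445 against 699 and 872.

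The members lie on 17 chromosomes, and some chromosomes differed as a whole. Chromosome 11 had a median log2 difference of 0.30 over its 697 genes tested, and 59.1% of them were higher in both p62-EGFP tumors. This chromosome carries 11 of the 74 members, beside 697 of the 7846 genes tested, and these shares were not compared by a test. Its members, 8 of the large and 3 of the small subunit, are Mrpl10, Mrpl12, Mrpl22, Mrpl27, Mrpl38, Mrpl45, Mrpl55, Mrpl58, Mrps7, Mrps23 and Mrps24. All 11 were higher in both p62-EGFP tumors, with a median of 0.54 and a range from 0.20 for Mrps24 to 0.95 for Mrpl12, and 10 of 11 lay above the chromosome's median. For the 63 members on other chromosomes the median was 0.22, and 30 were higher in both p62-EGFP tumors and 1 lower, where 23.2% of the genes tested there were higher. The members' median was above that of all genes tested on the same chromosome on 17 of 17 chromosomes that carry a member. After subtraction of each chromosome's median, the large-subunit median was 0.24 and the small-subunit median 0.18, and 66 of 74 members lay above their chromosome. On chromosomes 8 and 17, whose genes had medians of -0.22 and -0.12, the 2 and 7 members had medians of 0.13 and 0.11. Of the stalk genes Mrpl10 and Mrpl12 lie on chromosome 11, and of the tunnel exit genes Mrpl22 and Mrpl45, and the 6 tunnel exit genes elsewhere had a median of 0.50. The part of chromosome-wide differences in the members' values was not tested.

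**Figure D4:**
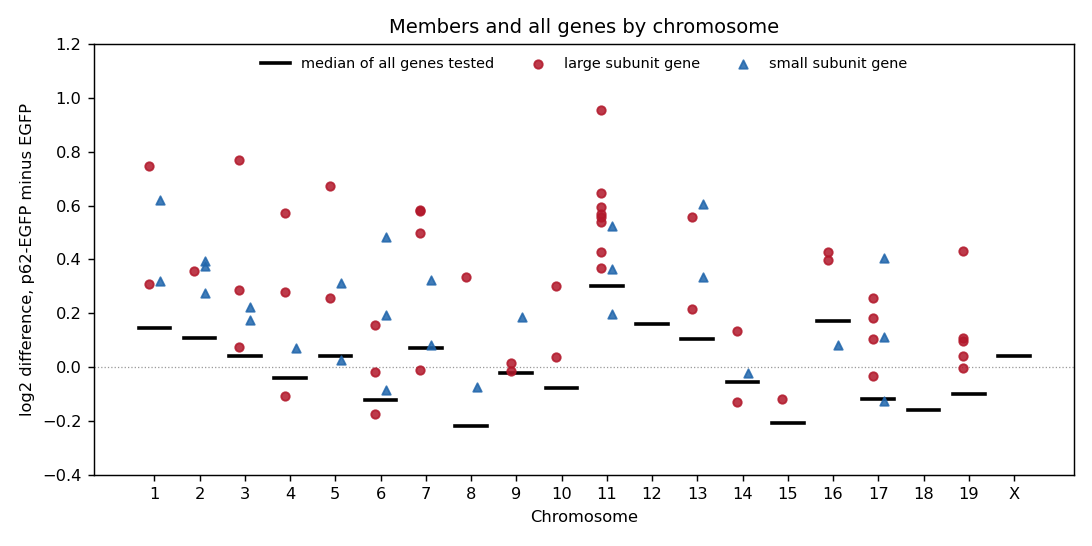
Log2 difference, p62-EGFP minus EGFP (vertical axis), of each large-subunit gene (red circles) and small-subunit gene (blue triangles) by chromosome (horizontal axis), with the median of all genes tested on that chromosome as a black bar. On chromosome 11 the bar lies at 0.30, and 10 of 11 members lie above it.

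The tumors differed in markers of host cells and in genes of epithelial cells, the type that was injected. In bulk tissue fewer cells of a type and less RNA per cell cannot be told apart. Skeletal muscle, a tissue rich in mitochondria, was marked by 12 genes whose signals summed to 63.1 and 658 with EGFP and to 5201 and 74.3 with p62-EGFP. Without p62-EGFP tumor 1, which had the highest value for all 12, the members' medians were 0.25 for the large and 0.21 for the small subunit. In p62-EGFP tumor 2, Ckm and Myl1, which encode muscle creatine kinase and a myosin light chain, read 2.9 and 0.6. In that tumor 54 and 55 of 74 members were higher than in EGFP tumors 1 and 2. Of the 7846 genes tested, 3758 and 4438 were higher in the same comparisons. What muscle contributed to the members' values was not tested. The 12 macrophage and myeloid genes summed to 1404 and 12300 against 2571 and 2610, and without EGFP tumor 2 the medians were 0.34 and 0.25. The 11 epithelial genes, all with a positive difference, summed to 2029 and 796 against 1754 and 2624, with Krt8 at 80.5 or more in every tumor, Krt7 and Pax8 between 4.7 and 11.2, and Cldn7 at 0.7 and 0.5 in the EGFP tumors. Krt18 read 729.6 and 254 against 545 and 627 and Epcam 351 and 109 against 361 and 660.3, so EGFP tumor 2 had the lowest level of both. It was not the lowest for Krt19, Krt7 or Pax8. Krt19 read 93.6 and 156 against 333 and 341 (log2 difference 1.36, limma adjusted p = 0.188), without overlap. Endothelial genes (8) summed to 412 and 533 against 202 and 257, and mast cell genes (5) to 611 and 469.8 against 165 and 118. Within these lists, Tek (endothelial) and Kit (mast cell) overlapped between groups, with log2 differences of 0.08 and 0.32. The 4 adipocyte genes summed to 724 and 1316 against 260.1 and 812, and the 7 fibroblast genes to 1016 and 3380 against 2058 and 2831. Fabp4 made up most of the adipocyte sum, at 699 and 1304 against 220 and 691. The other 3 adipocyte genes, Adipoq, Cidec and Retn, were higher in both p62-EGFP tumors and too dim to be tested. Endothelial and mast cell sums separated the groups as the members did, in the opposite direction, and their part in the result was not tested.

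Other genes of mitochondrial gene expression were followed in lists that were written with earlier results of these data known. No gene of these lists was called by limma. Their counts stand beside 26.4% of the genes tested that were higher in both p62-EGFP tumors, 22.1% that were lower in both, and 8.5% that were higher at an unadjusted limma p under 0.05. Of 22 genes for assembly of the mitochondrial ribosome and processing of its RNA, 17 were higher in both p62-EGFP tumors and 1 lower, the median being 0.34 and 8 higher at an unadjusted limma p under 0.05. C1qbp, a matrix chaperone that binds mitochondrial ribosomes and messenger RNA, read 980.4 and 1170 with EGFP and 1834 and 1964 with p62-EGFP. Eral1, a GTPase that binds the RNA of the small subunit, read 171 and 168 against 267 and 299, and Trmt10c, a subunit of mitochondrial RNase P, 107 and 126 against 195 and 187. Mtg1, a GTPase of large-subunit assembly, read 94.4 and 91.9 against 146 and 159. For these 4 genes limma gave adjusted p-values from 0.175 for C1qbp to 0.235 for Trmt10c. Dimt1 is also in the list, and its product modifies RNA of the cytosolic ribosome. C1qbp and Eral1 are among 5 genes of the list on chromosome 11. The 17 others had a median of 0.29, with 12 higher in both p62-EGFP tumors.

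Of 8 genes for translation factors and messenger RNA partners, 5 were higher and 0 lower, with a median of 0.35. Mrrf, the ribosome recycling factor, read 99.7 and 56.6 with EGFP and 151 and 133 with p62-EGFP. Slirp, which stabilizes mitochondrial messenger RNA, read 201 and 248 against 306 and 335, Tufm, the elongation factor that delivers aminoacyl-tRNA, 70.2 and 67.9 against 89.2 and 134, and Mtfmt, which formylates the initiator methionine, 71.0 and 72.8 against 101 and 92.2. Slirp's partner Lrpprc read 171 and 158 against 143 and 182, with overlap. Of 11 genes for aminoacyl-tRNA synthetases and the amidotransferase, 7 were higher and 1 lower, with a median of 0.26, and 9 of the 11 were tested. Tars2 read 105 and 124 with EGFP and 161 and 208 with p62-EGFP, Rars2 115 and 122 against 142 and 159 and Gatc 134 and 123 against 166 and 149.5, whereas Qrsl1, a subunit of the amidotransferase like Gatc, read 158 and 121 against 106 and 112.

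Of 10 genes for maintenance and transcription of mitochondrial DNA, 4 were higher and 0 lower, with a median of 0.15. Tefm, the transcription elongation factor, read 47.4 and 49.7 with EGFP and 119 and 115 with p62-EGFP (log2 difference 1.04, limma adjusted p = 0.179). Polg2, an accessory subunit of the DNA polymerase, read 101 and 91.0 against 156 and 169, and both of these lie on chromosome 11. The 8 other genes had a median of 0.08, with 2 higher in both p62-EGFP tumors, Tfb2m (224 and 231 against 286 and 338) and Mgme1 (70.3 and 51.5 against 85.4 and 96.8). Of 9 regulators of mitochondrial biogenesis, 3 were higher and 2 lower, shares near those of the genes tested, with a median of 0.02. Gabpa read 271 and 398 with EGFP and 462 and 504 with p62-EGFP. Nrf1 read 154 and 136 with EGFP and 126 and 115 with p62-EGFP, so these 2 lay apart in opposite directions. Myc read 29.6 and 48.8 against 46.6 and 65.1 with overlap (log2 difference 0.39). Yy1 read 632 and 639 against 645 and 746, higher in both p62-EGFP tumors (log2 difference 0.12). The cofactor Pprc1 read 232 and 218 against 224 and 233 with overlap. Ppargc1b, a coactivator, was lower in both p62-EGFP tumors and too dim to be tested. Of 5 genes for proteins at the ribosome that carry other names, 1 was higher in both p62-EGFP tumors: Dap3, a small-subunit protein, read 377 and 362 against 441 and 456. The other 4 were Gadd45gip1, Chchd1, Ptcd3 and Oxa1l, the last a membrane insertase to which the ribosome docks, with log2 differences from -0.05 to 0.19.

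**Figure D5:**
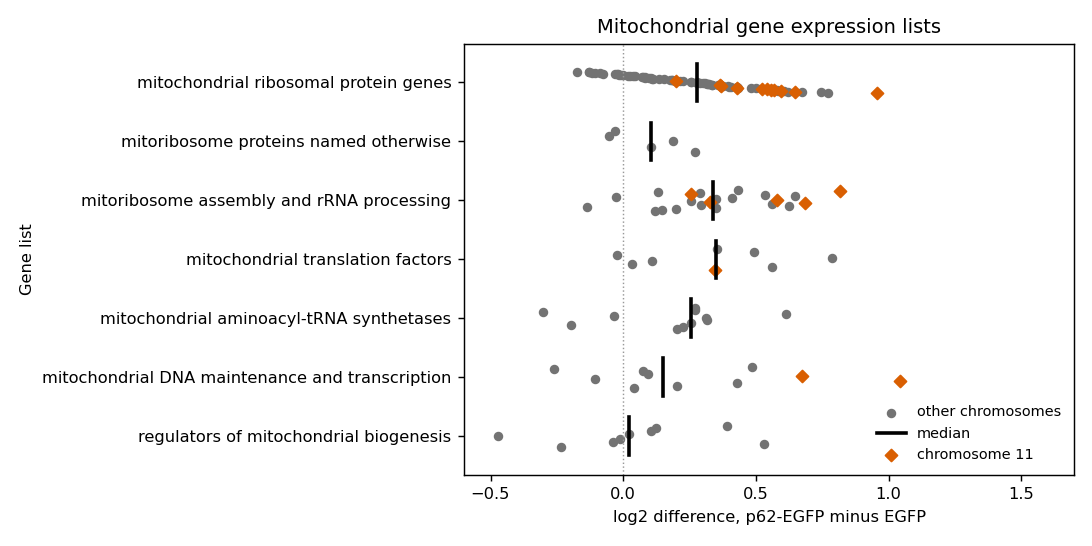
Log2 difference, p62-EGFP minus EGFP (horizontal axis), of each gene in 7 lists of mitochondrial gene expression (rows), with genes on chromosome 11 as orange diamonds, others as grey circles and the list's median as a black bar. The members and the assembly and translation lists have medians between 0.26 and 0.35, and the biogenesis regulators lie around 0.02.

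Related gene families had medians close to that of the members, and no test of a difference from them was run. The 44 cytosolic ribosomal protein genes had a median of 0.27, with 36 higher in both p62-EGFP tumors and 1 lower. The 79 nuclear genes for subunits of the respiratory chain and ATP synthase had a median of 0.20, with 43 higher and 1 lower. Most of these complexes, but not all, contain products of mitochondrial translation. Of the genes encoded in mitochondrial DNA, ND5, a complex I subunit named here after its values were seen, read 1893 and 1828 against 2438 and 1967 (log2 difference 0.23, limma adjusted p = 0.439).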

How the data were processed

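RNA of 4 tumors was hybridized to 1-colour Affymetrix Mouse Genome 430A 2.0 arrays, 1 per tumor. The authors deposited signal intensities on a linear scale. The submitters' processing notes name MAS5, with options not stated in the sources used here. Genes were named through the platform annotation, in which 20380 of 22626 probe sets without controls had 1 symbol, 691 several and 1555 none. All 127 member probe sets matched RefSeq genes of GRCm38.p6 by Entrez identifier, which gave their chromosomes.

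Values were analysed as log2(signal + 16), which understates fold changes of dim probe sets. The 13576 probe sets that passed the filter were fitted with limma 3.58.1 (lmFit, then eBayes with trend = TRUE) under R 4.3.3. Tests were two-sided, p-values were adjusted by Benjamini-Hochberg over all of them, and the threshold was 0.05. The fit was tested on simulated data. Full values were given for up to 10 members per direction with the largest difference among those whose tumors did not overlap, the 4 with the widest spread within a group, the Mrps18 genes, Mrps30 and Mrps36, and genes of each list with the smallest p. Other members were named for their place in the ribosome, after their values were seen. The members and lists were chosen with earlier results of these data known. Alternatives covered scaling, pseudocount, filter, variance model, replicate block, averaging of probe sets, subunit assignment, chromosome medians and leaving out each tumor. With 2 arrays per group, their number limits the precision.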

Additional observations from a re-analysis of the deposited data

How the results depend on the processing

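The count of members called was 0 in every setting that kept all 4 tumors, and from 0 to 15 when 1 tumor was left out. Where an EGFP tumor was left out, calls rose over all probe sets tested, so the upper count was not particular to the members. The median of the large subunit stayed above 0 in every setting run. It was 0.33 with median centring, 0.31 and 0.24 with pseudocounts of 1 and 64, 0.18 with the probe sets of a gene averaged, 0.24 with chromosome medians subtracted and from 0.25 to 0.34 with 1 tumor left out. The median of the small subunit also stayed above 0, at 0.26 with median centring, 0.19 with a pseudocount of 64, 0.18 with chromosome medians subtracted and from 0.21 to 0.27 with 1 tumor left out. The difference of the medians, large minus small, was -0.041 with probe sets averaged and from 0.034 to 0.089 with 1 tumor left out. The number of members higher with p62-EGFP without overlap ran from 40 to 45 over the settings with all 4 tumors. It was between 44 and 53 with 1 tumor left out. The number lower without overlap was 2 with probe sets averaged and from 4 to 10 with 1 tumor left out. With 1 tumor left out, fewer tumors have to agree, for any gene. The share of all genes tested is not given for those settings. Their counts therefore cannot be set against the 26.4% higher and 22.1% lower found with all 4 tumors. The median of all genes tested moved from 0.01 to 0.05 with median centring, the largest shift of the scalings tried. The replicate numbers did not pair the tumors (correlation of the differences between tumors 1 and 2 of the groups 0.08 over tested probe sets). A fit with the replicate block called 0 members and 37 probe sets in place of 12. Signal over background limits the dim probe sets: those under the filter, Ppargc1b and some further probe sets of members among them, have differences that the pseudocount shrinks.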
